A study of Homo sapiens with 18 samples.

Results

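The response to MAFG overexpression that WM164 and SKMel28 melanoma cells shared, and that was not detected in A375 melanoma cells, was described from RNA-seq of 18 libraries. Members were chosen from 1 model of all libraries, in which the response of a line is the log2 fold change of cells with MAFG over cells with GFP. The mean of the WM164 and SKMel28 responses minus the A375 response, called the response difference below, had to pass an adjusted p of 0.05 and a 2-fold change. WM164 and SKMel28 each had to have an adjusted p of 0.05 or less in the direction of the difference, and A375 was not to have one in that direction. Of 58870 genes listed and 18767 tested, 650 passed the difference, and 148 of those formed the common response, 85 higher and 63 lower with MAFG. The second question was whether these changes moved WM164 and SKMel28 cells toward the level of A375 cells with GFP.

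Each line carried either GFP or a Myc-DDK-tagged MAFG, delivered by a lentiviral vector under the EF1α promoter with blasticidin selection, so that the control cells were infected and selected as well. The groups were WM164 GFP, WM164 MAFG, SKMel28 GFP, SKMel28 MAFG, A375 GFP and A375 MAFG, with 3 libraries each, grown in RPMI with 5% FBS. The labels name the libraries of a group as separate samples but not as separate cultures, so p-values measure only the spread between these samples, which may be technical.

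MAFG is a small MAF protein, a leucine zipper factor that binds DNA but has no activation domain of its own. It pairs with CNC factors such as NRF2 (gene NFE2L2) or BACH1, or with itself, and the partner decides whether a target is raised or lowered. Melanoma cells vary between a melanocytic state, in which the factors MITF and SOX10 maintain pigment genes, and dedifferentiated states, in which pigment genes are low and the receptor tyrosine kinase AXL, matrix proteins or neural crest genes such as the neurotrophin receptor NGFR are high.

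The library depth was 20122172 to 39025042 counts. Replicates of a group correlated at 0.97 to 0.985 (Pearson, log CPM over tested genes). MAFG and GFP libraries of the same line correlated at 0.966 to 0.976, and across lines the range was 0.758 to 0.879. MAFG itself (ENSG00000197063.11, chromosome 17, 81918270 to 81927735 of GRCh38) was at 25.6, 28.8 and 23 CPM (counts scaled to a common normalized library size) in WM164 GFP libraries and at 56, 55.4 and 47.8 in WM164 MAFG libraries. In SKMel28 it was at 26.2, 26 and 20.1 CPM with GFP and 38.9, 35.8 and 37.3 with MAFG, and in A375 at 23.7, 24.6 and 32.7 and 56.3, 47.9 and 37.9. MAFG libraries were above GFP libraries of the same line without overlap. The responses of MAFG were 1.04 (SE 0.14), 0.63 (SE 0.15) and 0.81 (SE 0.14) on the log2 scale in WM164, SKMel28 and A375, and its response difference was 0.03 (SE 0.17, adjusted p = 1). In the deposited TPM values MAFG went from 2.89 to 24.5 in WM164, from 3.96 to 17 in SKMel28 and from 4.22 to 25.2 in A375 (group means, n = 3). SIRT7 overlaps MAFG on the same strand, and the labels and methods do not agree on whether the libraries kept strand.

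The state markers separated the lines. With GFP, MITF was at 422 to 454 CPM in WM164 and 639 to 656 in SKMel28 against 27.1 to 29.7 in A375, PMEL was at or above 878 in the former lines and at most 0.335 in A375, and MLANA and TYR were at 0 counts in all A375 libraries. TYRP1, a pigment enzyme, was at most 0.198 CPM in WM164 GFP but 52.5 to 62.5 in SKMel28 GFP. Among markers of dedifferentiation, AXL at 615 to 663 CPM and EGFR at 148 to 166 were high in A375 GFP, whereas NGFR at 1.46 to 2.15 and TNC at 23.6 to 28.8 were lower there than in any GFP library of the melanocytic lines, which held at least 5.77 CPM of NGFR and 895 of TNC. WNT5A at 16 to 19.7 CPM in A375 GFP overlapped its range in WM164 GFP, 15.2 to 16.6.

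RNA of A375 in the other lines was also looked for. Of 108 genes at the floor (at most 3 counts in each library) in WM164 GFP and at 10 CPM or more in each A375 GFP library, 78 were still at the floor in WM164 MAFG, and their median level there was 0.0207% of that in A375. In SKMel28 it was 83 of 105 genes, with a median of 0% and a highest share of 4.67%, for IL4R. Of the markers of other cell types, 1 of 9 for keratinocytes (KRT1), 1 of 8 for fibroblasts (MFAP5), 1 of 7 for endothelial cells (CLDN5) and 3 of 8 for immune cells (PTPRC and CD3E among them) were at the floor in all libraries. The summed keratinocyte markers were at 70.1 to 81.2 CPM in A375 GFP and 9.69 to 14.5 in WM164 GFP. The summed fibroblast markers were at 11.4 to 13.1 CPM in SKMel28 GFP and 18.3 to 21.3 in SKMel28 MAFG, and at 22.2 to 22.8 and 24.5 to 26.1 in WM164, without overlap in either line, and their part in the results was not tested.

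The 236 genes with a higher difference (1.26% of those tested) and the 414 with a lower one (2.21%) were unlike in make-up. Among the higher genes, the common response held 85 (36%, or 0.453% of tested genes), while 80 rose in WM164 and not in SKMel28, 27 rose in SKMel28 and not in WM164, and 13 rose in neither and fell in A375. Among the lower genes, it held 63 (15.2%, or 0.336% of tested genes), and the most numerous class, 143 genes, fell in neither WM164 nor SKMel28 and rose in A375. Of those 143, 84 had no response at an adjusted p of 0.05 or less in either melanocytic line, while 46 also rose in WM164 and 28 in SKMel28, 15 of them in both. Over all tested genes, 8.81% rose in WM164 and 7.73% in SKMel28 at that adjusted p. A further 52 lower genes fell in 1 line and rose in A375, 47 lower and 24 higher genes had no line with a call of its own, and 5 genes moved in the direction of the difference in all 3 lines. A mean over 2 lines thus took in many genes that were not shared by them, and the text below keeps to the shared ones. With bulk RNA, a change in the share of cells that express a gene and a change in RNA per cell cannot be told apart.

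**Figure D1:**
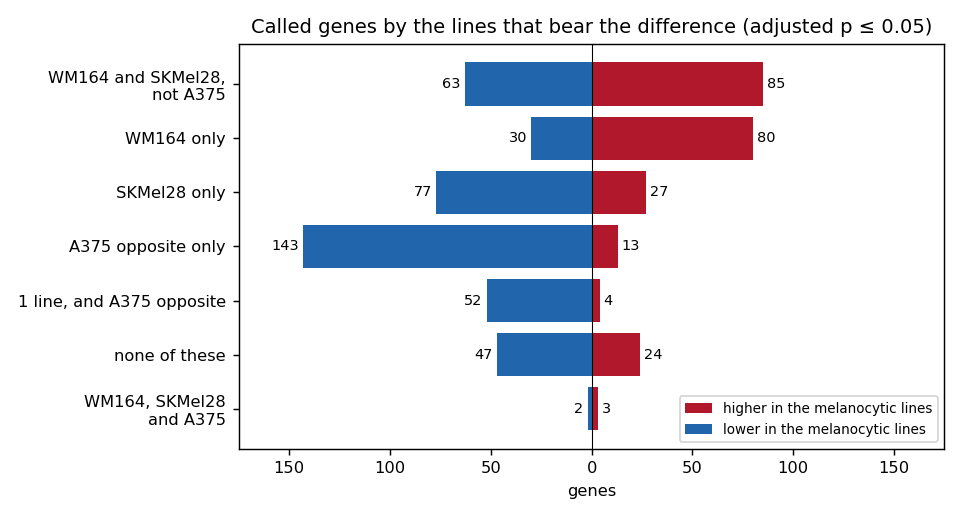
Numbers of genes called in the response difference (horizontal axis, genes to the right higher and to the left lower in WM164 and SKMel28 relative to A375), by which of WM164 and SKMel28 had an adjusted p of 0.05 or less in the direction of the difference, and whether A375 had one in that or the opposite direction. The common response, 85 and 63 genes, is the top row, and the largest bar is the 143 lower genes that rose in A375 and fell in neither other line, 84 of them without a response there.

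The 85 higher genes of the common response had a median response of 2.27 in WM164, 2.13 in SKMel28 and 0.02 in A375 on the log2 scale, against medians of 0.00 over all tested genes in each line. Because 19 of them in WM164 and 15 in SKMel28 were at the floor with GFP, their fitted folds have no true base, and with those genes set to the smallest fold that 3 counts allow the medians were 1.95 and 1.81. In 81 of the 85, the 3 MAFG libraries lay above the 3 GFP libraries in both lines, as did 4.84% of all tested genes, a count that the choice of members makes high. The 63 lower genes had medians of -1.39, -1.24 and 0.24, and the libraries of all 63 were apart in both lines (5.99% of tested genes were apart downwards). Of the higher genes 82 were protein-coding, and of the lower genes 59.

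The size of the response differed between the melanocytic lines for 40 higher and 23 lower members by an adjusted p of 0.05 or less on WM164 minus SKMel28. At that adjusted p, 2573 of all 18767 tested genes differed. The WM164 response was the larger in 27 of those 40 and 14 of those 23. A missing call in A375 does not show that a gene did not respond there, so the 95% interval of its A375 response was examined. It lay within a 2-fold change either way for 62 of the 84 higher members that were above the floor in some A375 library, and for 42 of the 63 lower members. The A375 libraries themselves were apart in the direction of the other lines for 11 higher and 0 lower members, and in the opposite direction for 7 and 11. No share over all tested genes is given for these counts, and the A375 libraries helped to choose the members, so they are a description. Of the lower members, 9 had risen in A375, that is, they moved the opposite way. Of all tested genes, 2.33% rose there at an adjusted p of 0.05 or less. Each line on its own passed the thresholds against A375 for 47 higher and 43 lower members, counts that the choice of members makes high. Over all tested genes, 415 were called higher and 408 lower for WM164 against A375, and 208 and 580 for SKMel28 against A375.

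**Figure D2:**
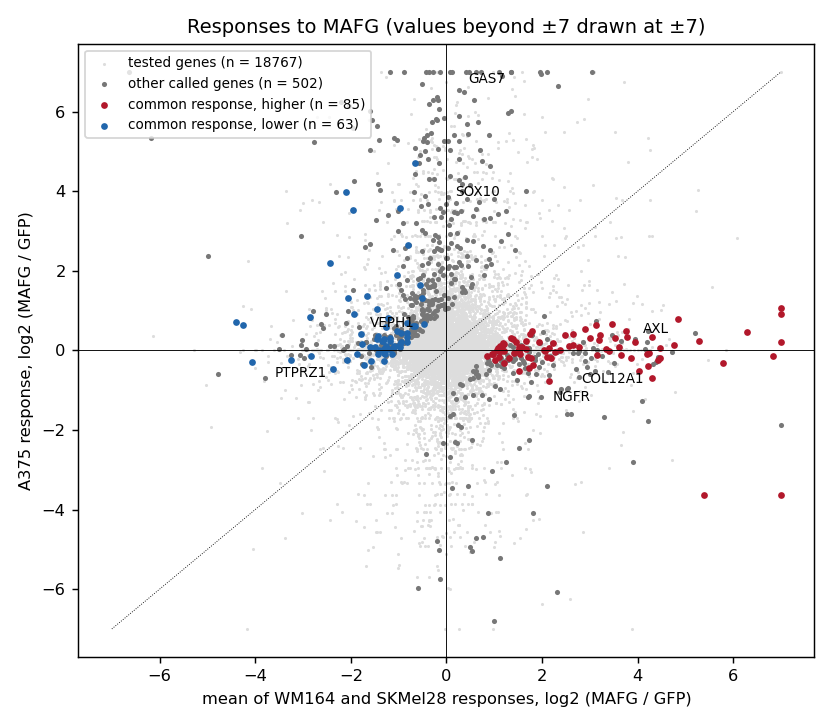
Each tested gene by the mean of its WM164 and SKMel28 responses (horizontal axis, log2 of MAFG over GFP) and its A375 response (vertical axis, same unit), with the common response in red (85 higher) and blue (63 lower) and the other called genes in dark grey. Most red points, AXL and COL12A1 among them, lie along the horizontal axis, and SOX10 and GAS7 lie along the vertical one.

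The higher genes included several receptors. AXL (ENSG00000167601.12, chromosome 19, 41219223 to 41261766), a receptor tyrosine kinase that marks dedifferentiated melanoma, was at 4.39, 2.62 and 2.84 CPM in the WM164 GFP libraries and at 27.2, 30.5 and 28.9 in the WM164 MAFG libraries. In SKMel28 it was at 0.633, 0.443 and 0.69 CPM with GFP and at 22.2, 22.5 and 24.4 with MAFG. In A375 it was at 615, 619.8 and 663 CPM with GFP and at 682, 545 and 546 with MAFG. The groups were far apart in both melanocytic lines and overlapped in A375, and even the MAFG libraries of WM164 and SKMel28 stayed well below every A375 library. AXL rose by 3.13 (SE 0.14) in WM164 and 5.25 (SE 0.19) in SKMel28 on the log2 scale, with -0.10 (95% interval -0.32 to 0.12) in A375, which gave a response difference of 4.29 (SE 0.17, adjusted p = 3.24e-13). The response of SKMel28 was the larger, by a WM164 minus SKMel28 value of -2.11 (adjusted p = 1.02e-05). The AXL level thus covered 41.3% of its log2 distance to A375 GFP in WM164 and 52.3% in SKMel28.

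NGFR (ENSG00000064300.9, chromosome 17, 49495293 to 49515008), the low-affinity neurotrophin receptor of neural crest-like cells, was at 6.64, 6.0 and 5.77 CPM with GFP and 18.3, 20.6 and 22.7 with MAFG in WM164. In SKMel28 it was at 13.8, 12 and 9.63 and 67.3, 63 and 76 CPM, and in A375 at 1.46, 1.55 and 2.15 and 1.19, 1.14 and 0.698. The MAFG libraries were the higher ones in both melanocytic lines and the lower ones in A375, without overlap in any line. Its responses were 1.74, 2.54 and -0.77 (adjusted p = 0.0683 in A375), and its response difference was 2.92 (SE 0.25, adjusted p = 6.67e-08). Since A375 GFP held the lowest level, NGFR moved away from A375, by A375 minus line gaps that went from -1.84 to -3.58 in WM164 and from -2.78 to -5.32 in SKMel28.

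Other receptor members were EPHA2, an ephrin receptor, and TLR4, an innate immune receptor of bacterial lipopolysaccharide. EPHA2 was at 3.21 ± 0.75 CPM with GFP and 5.7 ± 0.562 with MAFG in WM164 (SD, n = 3), and at 0.812 ± 0.298 and 4.87 ± 1.61 in SKMel28, against 223 ± 27.9 in A375 GFP. Its response difference was 1.88 (SE 0.26, adjusted p = 4.99e-05), with the larger response, 2.6, in SKMel28. TLR4 went from 3.0 ± 0.585 to 7.58 ± 0.525 CPM in WM164 and from 3.69 ± 0.609 to 10.1 ± 1.18 in SKMel28. Its responses of 1.33 and 1.46 were near each other (difference -0.13, SE 0.23) and its A375 response was 0.28 (interval -0.01 to 0.57). Both genes lay below A375 GFP in both lines before and after MAFG.

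Secreted regulators formed another part of the higher genes. FST (ENSG00000134363.12, chromosome 5, 53480626 to 53487134) encodes follistatin, which binds activins and keeps them from their receptors. It was at 0.393, 0.398 and 0.513 CPM in WM164 GFP and 11.8, 9.13 and 12.3 in WM164 MAFG libraries. In SKMel28 it was at 0.733, 1.48 and 1.45 CPM with GFP and 11.3, 9.07 and 9.2 with MAFG, and in A375 at 129.6, 136 and 126 and 103, 121 and 121. MAFG brought both melanocytic lines to a similar level, about which the libraries of the lines overlapped, although the line that started lower rose more. The responses were 4.67 (SE 0.22), 3.04 (SE 0.18) and -0.18 (interval -0.43 to 0.06), and the response difference was 4.04 (SE 0.19, adjusted p = 1.24e-11). The gap to A375 GFP narrowed from 8.23 to 3.56 in WM164 and from 6.77 to 3.73 in SKMel28.

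The growth factor FGF2 went from 4.92 ± 0.351 to 8.24 ± 1.52 CPM in WM164 and from 1.08 ± 0.161 to 3.9 ± 0.809 in SKMel28, a response difference of 1.5 (SE 0.22, adjusted p = 0.000104), with NUDT6 overlapping it on the opposite strand. On the deposited TPM values the FGF2 difference did not pass, at 0.60 (adjusted p = 0.194 in limma) on log2(TPM + 1). The cytokine IL11 stayed under 2 CPM in both lines, from 0.0858 ± 0.0894 to 1.13 ± 0.433 in WM164 and from 0.139 ± 0.0323 to 0.617 ± 0.254 in SKMel28. These were small amounts of RNA, and the IL11 difference of 2.36 (SE 0.58, adjusted p = 0.0127) was negative, -0.08, on log2(TPM + 1). INHBA, an activin subunit and so a ligand that follistatin binds, is not a member because it also rose in A375, with responses of 4.36, 1.91 and 0.74 in WM164, SKMel28 and A375.

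Extracellular matrix genes were also members. COL12A1 (ENSG00000111799.21, chromosome 6, 75084326 to 75206267), a collagen found along fibril surfaces, was at 1.43, 1.79 and 1.34 CPM in WM164 GFP and 63.9, 57 and 58.8 in WM164 MAFG libraries. SKMel28 had 6.76, 6.69 and 5.66 CPM with GFP and 26.5, 22.6 and 29.4 with MAFG, and A375 had 107, 99.6 and 95.8 and 83.1, 96.4 and 102. The A375 groups overlapped, and with MAFG both melanocytic lines still lay below every A375 library, SKMel28 further than WM164. COL12A1 rose by 5.29 (SE 0.14) in WM164 and 2.04 (SE 0.12) in SKMel28, a significant difference between the lines (3.25, adjusted p = 1.55e-10). The response difference was 3.77 (SE 0.14, adjusted p = 2.79e-13), and 87.6% of the gap to A375 was covered in WM164 and 51.1% in SKMel28.

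LOXL2 (ENSG00000134013.15, chromosome 8, 23296897 to 23425328), a lysyl oxidase that crosslinks collagen, was at 44, 47.6 and 43.3 CPM in WM164 GFP and 228, 220.5 and 208 in WM164 MAFG. The values in SKMel28 were 9.19, 7.53 and 7.66 and 31.4, 27 and 26.2 CPM, and in A375 97.8, 102 and 112 and 126, 95.8 and 93.8. WM164 passed the A375 libraries with MAFG, SKMel28 did not, and the A375 groups overlapped. The response difference was 2.02 (SE 0.13, adjusted p = 1.7e-09), from responses of 2.28, 1.79 and 0.02. ENTPD4 overlaps LOXL2 on the same strand.

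Of 22 collagen chain genes tested, 5 were called higher in the difference and none lower, and all 5 were common response genes, against 1.26% higher over all genes. The other 4 were COL5A1, a fibril-forming chain, COL4A1 and COL4A2, the main basement membrane chains, and COL13A1, a transmembrane collagen. COL5A1 went from 0.734 ± 0.269 to 7.24 ± 0.817 CPM in WM164 and from 0.113 ± 0.0878 to 3.16 ± 0.275 in SKMel28, and both ended above A375 GFP at 0.371 ± 0.184. COL13A1 went from 1.86 ± 0.429 to 11.1 ± 1.17 CPM and from 0.295 ± 0.258 to 4.51 ± 1.2, beside 6.98 ± 1.35 in A375 GFP. COL4A1 reached only 7.67 ± 0.738 and 1.21 ± 0.59 CPM, far below 59.9 ± 4.13 in A375 GFP. COL4A2 was at the floor in WM164 GFP and rose at least 9.83-fold there, to 1.06 ± 0.134 CPM, and from 0.615 ± 0.0353 to 3.81 ± 0.61 in SKMel28, against 188 ± 18.6 in A375 GFP. COL4A1 and COL4A2 overlap head to head on opposite strands, so reads in the overlap cannot be told apart without strand. That none of the 5 rose in A375 at an adjusted p of 0.05 or less follows from the choice of members. The adjusted p of their A375 responses was 0.216 or more. COL4A1 had the lowest, with A375 libraries that did not overlap, 57.1 to 64.6 CPM with GFP and 70.7 to 83.6 with MAFG, and an interval of 0.09 to 0.70 in the direction of the other lines.

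ITGA1, a collagen-binding integrin subunit that shares its locus with PELO, rose from 13.7 ± 0.91 to 94.5 ± 3.52 CPM in WM164 and from 24.6 ± 1.24 to 38.8 ± 1.71 in SKMel28, while A375 was at 52.5 ± 5.37 with GFP and 38.4 ± 11.6 with MAFG. It was the only member among 26 tested integrins and laminins, of which 4 were called lower in the difference. ADAMTS6, a secreted metalloprotease, went from 0.0527 ± 0.0912 to 3.03 ± 0.802 CPM in WM164 and from 0.138 ± 0.0997 to 0.447 ± 0.0805 in SKMel28. The SKMel28 response only just passed (adjusted p = 0.0495), and the response difference of 3.27 became 5.14 without WM164 GFP replicate 3, the only WM164 GFP library with a count.

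Further higher members belonged to transport, glycosylation and neuronal adhesion. KIF5C, a neuronal kinesin that carries cargo along microtubules, rose from 8.29 ± 0.851 to 31.5 ± 1.78 CPM in WM164 and from 0.84 ± 0.347 to 5.0 ± 0.331 in SKMel28 (response difference 2.33, adjusted p = 1.34e-07). GALNT18, which belongs to the enzymes that start O-linked glycans, rose from 0.347 ± 0.178 to 10.3 ± 1.63 CPM and from 2.99 ± 0.338 to 11.5 ± 1.15, past A375 GFP at 4.57 ± 0.266 in both lines. SLC9A7, a sodium and proton exchanger of the Golgi, reached 5.38 ± 0.667 and 9.23 ± 0.47 CPM and stayed below 18.5 ± 1.15 in A375 GFP. NEGR1, a neuronal adhesion protein, was at the floor in WM164 GFP and rose at least 3.13-fold there, and in SKMel28 it went from 2.26 ± 0.335 to 8.67 ± 0.38 CPM, next to 8.77 ± 0.886 in A375 GFP.

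Noncoding RNAs were few. H19 (ENSG00000130600.18, chromosome 11, 1995166 to 2004552), an imprinted RNA that hosts MIR675, was at 96.3, 86.5 and 86.6 CPM in WM164 GFP and 2626, 2647 and 2534 in WM164 MAFG libraries. SKMel28 went from 11.6, 12.8 and 11 CPM to 31.8, 32.2 and 33.1, and A375 had 11.2, 10.1 and 11 with GFP and 11.4, 8.88 and 9.65 with MAFG. WM164 was already highest with GFP, and the groups of A375 overlapped. The responses of 4.86 and 1.46 differed by 3.4 (adjusted p = 1.05e-13), and the response difference against A375 was 3.27 (SE 0.11, adjusted p = 6.45e-14). ESRG (ENSG00000265992.1, chromosome 3, 54632122 to 54639857), a noncoding RNA antisense to CACNA2D3, was at 0 in the GFP libraries of both melanocytic lines and at 6.89, 6.28 and 8.31 CPM in WM164 MAFG and 11.4, 9.47 and 10.8 in SKMel28 MAFG. Against a floor of 3 counts per library it was at least 66.1-fold higher in WM164 and at least 90.2-fold higher in SKMel28. A375 libraries held at most 0.0782 CPM of ESRG. CACNA2D3 is itself a higher member, with fitted responses of 9.76 and 6.01. Its A375 minus line gap was 8.41 for both lines, and ESRG, at 0 with GFP in both, also had equal gaps. The CACNA2D3 folds may therefore have no true base. Without strand the ESRG counts cannot be told apart from those of CACNA2D3. The A375 minus line gap of H19 went from -3.06 to -7.92 in WM164 and from -0.13 (adjusted p = 0.221) to -1.59 (adjusted p = 8.11e-13) in SKMel28, away from A375 in both.

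**Figure D3:**
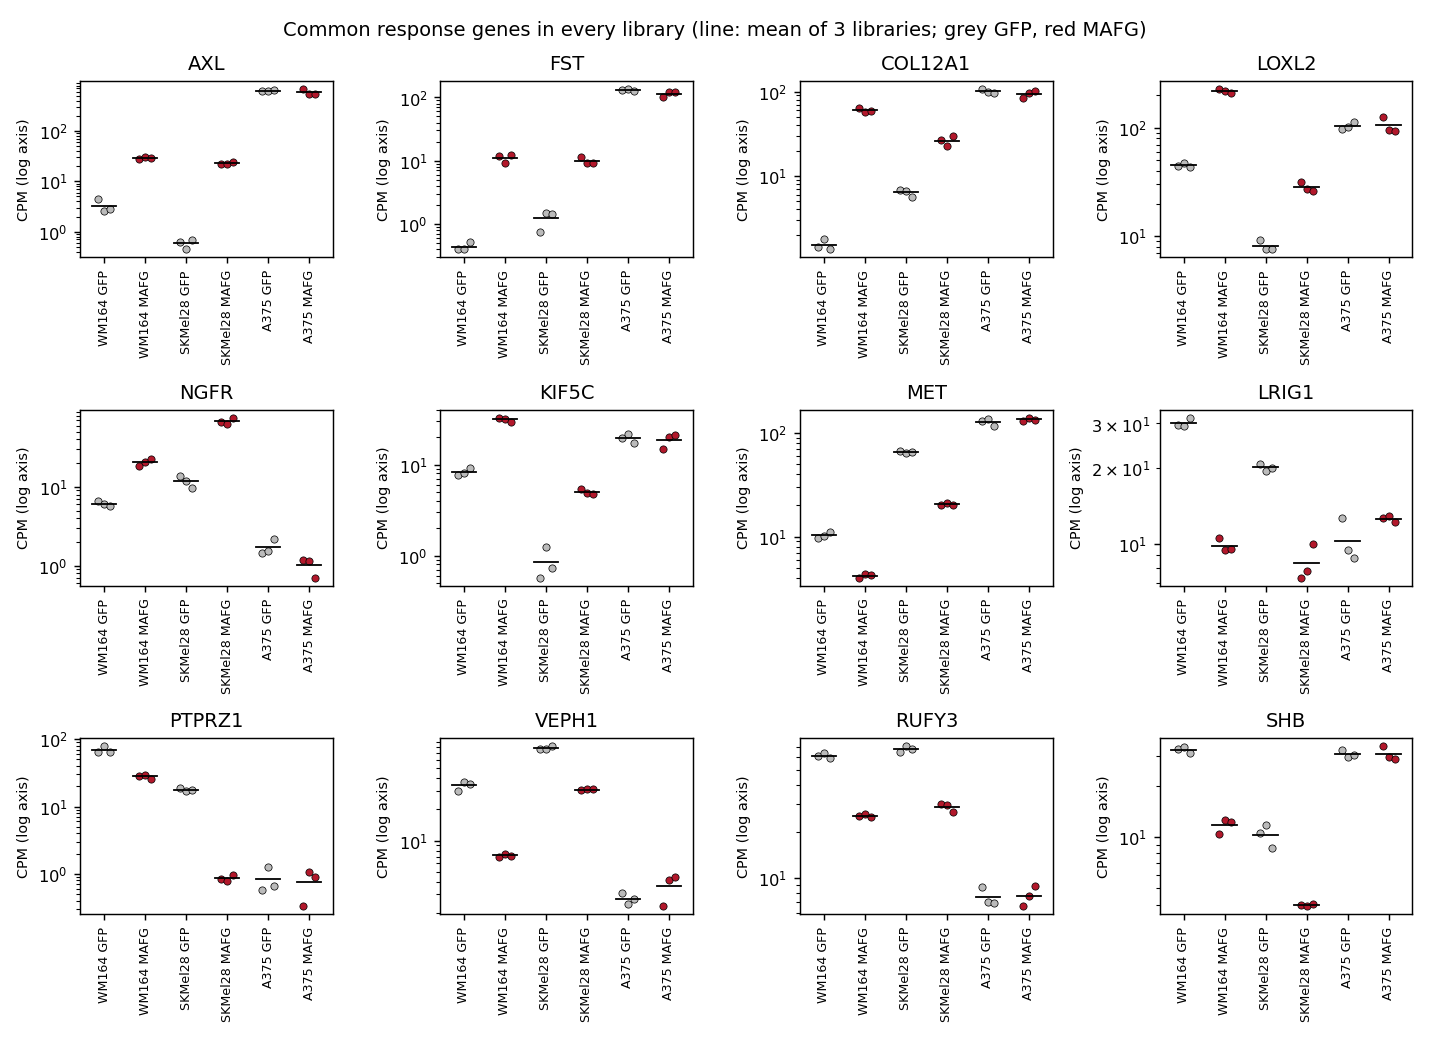
CPM of 12 common response genes in each library (points) with the group mean (line), on a log axis, for WM164, SKMel28 and A375 with GFP (grey) and MAFG (red). In WM164 and SKMel28 the red and grey points of each gene are apart, as with AXL at 27.2 CPM or more against 4.39 or less in WM164, while the A375 levels lie above (AXL, FST, COL12A1, MET), below (NGFR, VEPH1, RUFY3) or between those of the other lines.

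Receptors and channels were found among the lower genes too. MET (ENSG00000105976.15, chromosome 7, 116672196 to 116798377), the receptor of hepatocyte growth factor, was at 9.64, 10.2 and 11.2 CPM in WM164 GFP and 3.99, 4.32 and 4.29 in WM164 MAFG libraries. SKMel28 had 67.2, 64.6 and 64.8 CPM with GFP and 20.2, 21 and 20.2 with MAFG, and A375 had 132, 137 and 116 and 132, 141 and 133. Each melanocytic line lost MET without overlap of its groups, whereas the A375 groups overlapped. MET fell by 1.3 (SE 0.09) in WM164 and by 1.68 (SE 0.08) in SKMel28 on the log2 scale, and its A375 response was 0.08 (interval -0.08 to 0.23), for a response difference of -1.56 (SE 0.10, adjusted p = 6.67e-10). A375 GFP was the highest in MET, and the gap widened from 3.63 to 4.93 in WM164 and from 0.97 to 2.65 in SKMel28. AXL and MET, both receptor tyrosine kinases that are high in A375, therefore moved in opposite directions.

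PTPRZ1 (ENSG00000106278.12, chromosome 7, 121873089 to 122062036), a receptor tyrosine phosphatase of glia and their precursors, was at 64.3, 79.3 and 65.1 CPM in WM164 GFP and 28.9, 29.7 and 25.5 in WM164 MAFG. SKMel28 had 18.9, 16.8 and 17.4 CPM with GFP and 0.834, 0.789 and 0.976 with MAFG, and A375 had 0.574, 1.28 and 0.67 and 0.329, 1.06 and 0.907. SKMel28 MAFG libraries fell into the A375 range, and WM164 MAFG libraries remained above it. The responses were -1.31 (SE 0.18) and -4.35 (SE 0.25), which differed (adjusted p = 8.01e-07), and the response difference was -2.7 (SE 0.36, adjusted p = 3.49e-05).

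KCNN2, a calcium-activated potassium channel, fell from 18.5, 19.9 and 19.9 to 3.5, 2.29 and 3.43 CPM in WM164 and from 19.9, 15 and 19.1 to 4.91, 3.73 and 4.05 in SKMel28. A375 was at 1.56, 1.88 and 1.25 CPM with GFP and 1.74, 0.848 and 0.814 with MAFG. The decrease brought both lines closer to A375 without reaching it, and the A375 groups overlapped. Its responses were -2.65, -2.09 and -0.47, with a response difference of -1.91 (SE 0.31, adjusted p = 0.000313). GABRA5, a subunit of the GABA-A receptor whose locus is overlapped on the opposite strand, went from 10.9 ± 1.5 to 3.42 ± 0.327 CPM in WM164 and from 7.97 ± 1.32 to 1.4 ± 0.294 in SKMel28 (response difference -1.85, adjusted p = 6.41e-07). A375 GFP held 35.8 ± 3.47 CPM of GABRA5, above both lines, so that its decrease was away from A375.

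Guidance receptors included ROBO2, a receptor of SLIT proteins, which went from 16.6 ± 2.78 to 2.85 ± 0.425 CPM in WM164 and from 48.4 ± 3.12 to 24.7 ± 2.32 in SKMel28 against 1.8 ± 0.283 in A375 GFP (response difference -1.92, adjusted p = 3.15e-06). PLXNC1, a semaphorin receptor, fell by 1.01 in WM164 and 0.39 in SKMel28 on the log2 scale, and the SKMel28 value had an adjusted p of 0.0459. Its response difference of -1.31 (adjusted p = 0.00169) was -0.92 without A375 MAFG replicate 3, which is under the fold limit.

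LRIG1 (ENSG00000144749.13, chromosome 3, 66378797 to 66501263), which promotes the breakdown of ERBB receptors, was at 29.7, 29.3 and 31.7 CPM in WM164 GFP and 10.5, 9.43 and 9.52 in WM164 MAFG libraries. SKMel28 had 20.7, 19.5 and 20 with GFP and 7.31, 7.82 and 9.98 with MAFG, and A375 had 12.6, 9.43 and 8.76 and 12.7, 12.8 and 12.2. The MAFG libraries of both melanocytic lines overlapped the range of A375 GFP, at gaps of 0.06 and 0.30 (adjusted p = 0.685 and 0.0582). The response difference was -1.73 (SE 0.16, adjusted p = 3.04e-07). SHB, an adaptor of receptor tyrosine kinases, fell by 1.47 in WM164 and 1.36 in SKMel28 on the log2 scale, from 32.6 ± 1.28 to 11.8 ± 1.12 CPM and from 10.3 ± 1.59 to 3.99 ± 0.0731, whereas A375 was at 30.8 ± 1.34 and 30.8 ± 2.97. That left both lines below A375 GFP, by gaps of 1.39 and 2.94, where the gap of WM164 GFP had been -0.08 (adjusted p = 0.506).

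ARHGAP29, a RhoA GTPase-activating protein, went from 74.6 ± 8.14 to 30.1 ± 0.547 CPM in WM164 and from 30.2 ± 0.177 to 8.42 ± 0.739 in SKMel28, with an A375 response of -0.27 (interval -0.48 to -0.05) in the same direction. RUFY3, which links endosomes and lysosomes to the cytoskeleton, went from 61.5 ± 1.91 to 25.2 ± 0.558 and from 68 ± 3.1 to 28.7 ± 1.88 CPM (responses of -1.29 and -1.24). TESK2, a kinase of cofilin, and VEPH1, a membrane-binding PH domain protein, had response differences of -1.61 (adjusted p = 0.00291) and -2.2 (adjusted p = 2.55e-07). In WM164 they went from 15.9 ± 1.23 to 6.18 ± 0.408 and from 34.1 ± 3.57 to 7.18 ± 0.259 CPM, and in SKMel28 from 43.5 ± 2.22 to 18.1 ± 3.53 and from 78.6 ± 3.29 to 31.2 ± 0.29. RUFY3, TESK2 and VEPH1 were all lower in A375 GFP than in either line, and remained so after MAFG.

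POU3F1, a POU domain factor of Schwann cell precursors and neural lineages, went from 7.35, 8.76 and 7.86 to 3.04, 3.1 and 2.78 CPM in WM164 and from 6.3, 6.94 and 4.49 to 0.767, 1.15 and 0.638 in SKMel28. A375 had 0 counts in all libraries except MAFG replicate 2, at 0.185 CPM. Its response difference of -6.08 (SE 1.59, adjusted p = 0.0224) rests on that library, since without it the value was -2.1 with an adjusted p of 0.9999, and without A375 GFP replicate 1 or 2 the adjusted p was 0.0502 and 0.0516. SLC7A11, the cystine importer and an NRF2 target, fell by 0.62 in WM164 and 1.99 in SKMel28 on the log2 scale, from 63.5 ± 3.71 to 41.4 ± 0.418 and from 72.2 ± 5.58 to 18.1 ± 0.901 CPM. Its response difference of -1.04 was just past the fold limit and came to between -0.95 and -1.0 without A375 GFP replicate 3, A375 MAFG replicate 2 or A375 MAFG replicate 3.

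CD68, a lysosomal glycoprotein used as a macrophage marker, went from 129.5 ± 7.7 to 54.7 ± 3.25 CPM in WM164 and from 358 ± 40 to 229.8 ± 3.22 in SKMel28. The immune genes PTPRC and CD3E were at the floor in all libraries, and the 8 immune markers summed to 127 to 141 CPM in WM164 GFP and 55.2 to 60.4 in WM164 MAFG, and to 314 to 394 and 227 to 233 in SKMel28, most of it CD68. MMP14, a membrane-bound matrix metalloprotease, was one of the 9 lower members that moved the opposite way in A375. It fell from 264 ± 19.9 to 151 ± 11 CPM in WM164 and from 346 ± 15.3 to 241 ± 2.65 in SKMel28, and rose from 7.5 ± 0.366 to 11.4 ± 2.26 in A375, responses of -0.81, -0.52 and 0.61 (adjusted p = 0.00203 in A375).

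Whether the shared changes led toward A375 was asked of the genes called in the same direction in WM164 and in SKMel28. Those calls compare no A375 library, but A375 libraries entered the count filter, normalization and error of the shared fit. A gene low in both other lines could thus be tested because A375 was high. Of the 100 genes called higher in both lines (0.533% of tested genes), A375 GFP was above WM164 GFP for 58 and below for 31, and above SKMel28 GFP for 73 and below for 16. Over all tested genes A375 GFP was above WM164 GFP for 20.6% and below for 26%, and above SKMel28 GFP for 19.4% and below for 24.4%. Genes above both lines made up 55 of the 100, against 12.4% of tested genes, and genes below both 14, against 16.9%. Of the 56 genes called lower in both lines (0.298% of tested genes), A375 GFP was below both for 34 (60.7%) and above both for 5 (8.93%). So more than 50% of the shared changes in each direction had A375 GFP on the side toward which they went, in both lines. The share of raised genes with A375 GFP above both lines was lower under other settings, at 44.1% with no fold limit and 30.8% on log2(TPM + 1), and that of lowered genes with A375 GFP below both was 45.5% when each library had to hold 10 counts or more.

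A response and a gap of the same line share its GFP libraries, whose noise moves both in the same direction. Genes called in 1 line alone were therefore set against the gap of the other line, a comparison chosen after seeing the data. For the 190 genes higher in SKMel28 alone, A375 GFP was above WM164 GFP for 89 (46.8%) and below for 62 (32.6%), and for the 556 higher in WM164 alone it was above SKMel28 GFP for 241 (43.4%) and below for 138 (24.8%). For the 372 genes lower in SKMel28 alone, A375 GFP was below WM164 GFP for 169 (45.4%) and above for 101 (27.2%), and for the 212 lower in WM164 alone it was below SKMel28 GFP for 139 (65.6%) and above for 34 (16%). All 4 shares on the side of the response were above the share on the other side, and those for genes higher in SKMel28 alone were the closest to each other.

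For the common response itself the A375 libraries helped to choose the members, so the counts are a description. A375 GFP was above both lines for 65 of the 85 higher genes and below both for 2, and below both for 39 of the 63 lower genes and above both for 4. The distance still left was considerable. Of the 85 higher genes, 19 in WM164 and 15 in SKMel28 were at the floor with GFP. Their gaps have no true base and were not bounded in the medians below. For the 67 higher genes with a called gap in WM164, the median gap went from 4.57 to 1.62 on the log2 scale, a median of 63.6% of the gap, and 39 genes were still called below A375 GFP while 12 were called past it. For the 76 in SKMel28, the median gap went from 5.08 to 2.41, a median of 48.6%, with 52 still called and 4 past. Lower genes moved less of the way. The median gap went from -3.64 to -2.77 over 43 genes in WM164 (30.8%) and from -4.8 to -3.77 over 45 genes in SKMel28 (20.5%), and 31 and 38 of them were still called above A375 GFP.

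**Figure D4:**
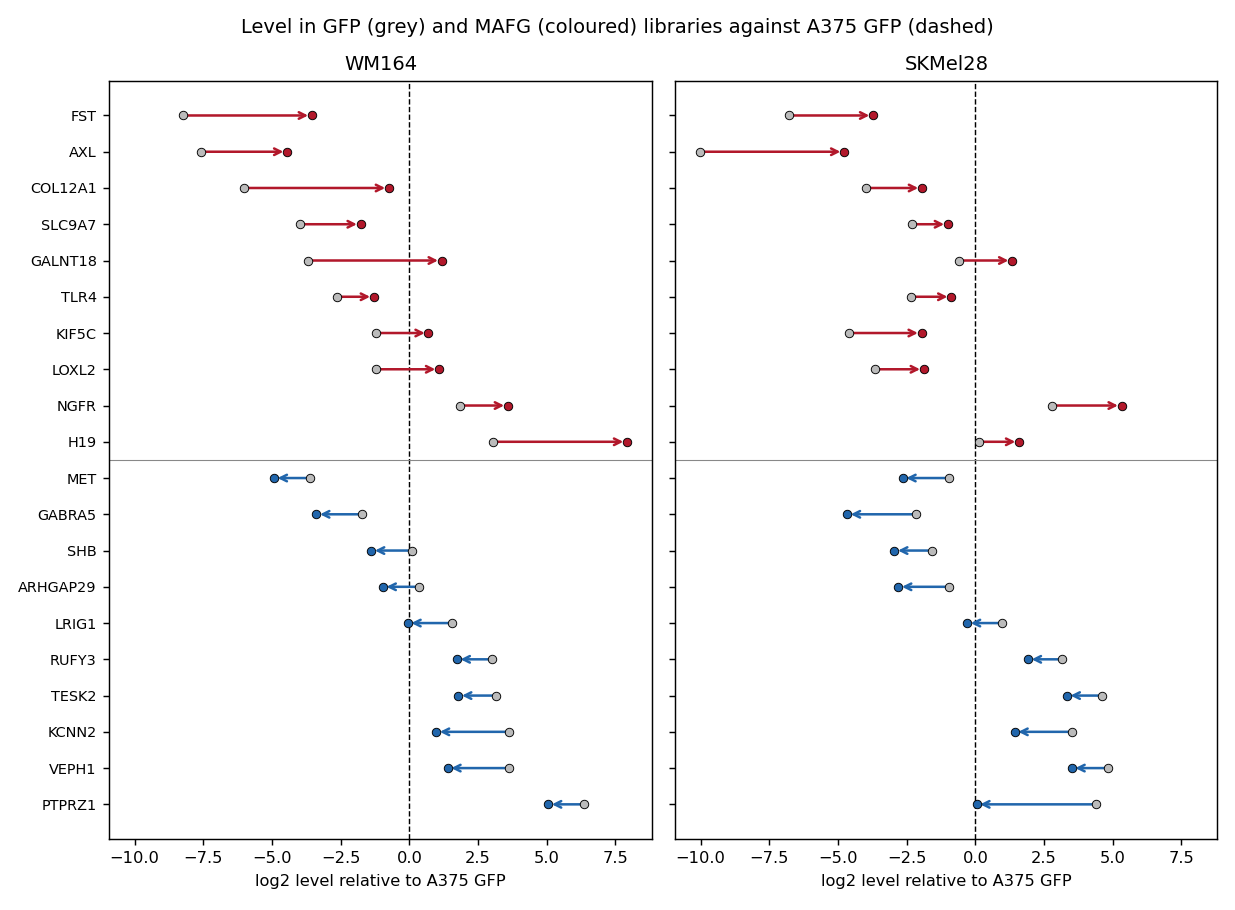
Level of 20 named common response genes in WM164 (left) and SKMel28 (right) relative to A375 GFP (dashed line at 0, horizontal axis in log2 units), from GFP (grey) to MAFG (red for higher, blue for lower genes). FST and AXL move toward the line without reaching it, GALNT18 crosses it in both panels, and NGFR, MET and GABRA5 move away from it.

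Over all genes the libraries hardly shifted toward A375. The correlation of log CPM with A375 GFP was 0.764 to 0.772 for WM164 GFP libraries and 0.766 to 0.772 for WM164 MAFG libraries, which overlap. For SKMel28 it was 0.776 to 0.786 with GFP and 0.789 to 0.791 with MAFG, which do not overlap, with n = 3 libraries a group.

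The state lists held few of the common response genes, and no set test was run on them. Of 30 mesenchymal-like markers tested, 8 were called higher and 1 lower in the response difference (1.26% and 2.21% over all genes), and 4 were common response genes, AXL, LOXL2 and COL5A1 among them. The list had median responses of 0.94 (WM164), 0.47 (SKMel28) and 0.08 (A375), and the median difference of 0.66 became 0.19 when each library had to hold 10 counts or more of a gene. EGFR was called through WM164 alone, with responses of 2.61, 0.04 and 0.13 in WM164, SKMel28 and A375, and THBS1 and CCN1 through SKMel28, with SKMel28 responses of 2.41 and 1.87. TWIST2 was called through WM164 with a difference of 4.67 (SE 1.38, adjusted p = 0.0436). TNC rose in all 3 lines, by 0.81, 0.78 and 1.88, most in A375, and so had a lower difference of -1.09.

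Melanocytic markers gave no member. Of 24 tested, 4 were called lower in the difference and none higher, and these were SOX10 and EDNRB, which rose in A375, GPR143, which fell in WM164, and MC1R, which had no call in any line. Median responses were -1.03 (WM164), -0.14 (SKMel28) and 0.03 (A375), and with no fold limit 17 markers fell in WM164 and 8 in SKMel28, where 3 rose (adjusted p of 0.05 or less). The falls over the whole set of 18767 genes came to 7.29% in WM164 and 8.46% in SKMel28. MITF went from 439 ± 16.1 to 279.6 ± 2.02 CPM in WM164 and from 648 ± 8.63 to 564 ± 13.5 in SKMel28, with responses of -0.65 (adjusted p = 8.2e-05) and -0.20 (adjusted p = 0.208) and a difference of -0.36 (SE 0.13, adjusted p = 0.096). MLANA had responses of -2.4 and 0.04, and TYR of -1.55 and -0.23, in WM164 and SKMel28, and at 0 counts in A375 their differences could not be estimated from counts. On log2(TPM + 1), where a gene at 0 has a value, the MLANA difference was -1.17 (SE 0.18, adjusted p = 0.000893 in limma). PMEL fell in both lines, by 1.46 and 0.66 on the log2 scale, but at under 1 CPM in A375 its difference of -2.01 (SE 0.63) had an adjusted p of 0.0564, and it ranged from -3.38 without A375 GFP replicate 3 (adjusted p = 0.00782) to -1.16 without A375 MAFG replicate 3. It was called with DESeq2 (-2.01, adjusted p = 0.000255), with no count filter (-2.0, adjusted p = 6.43e-05 in edgeR) and on log2(TPM + 1) (-1.01, adjusted p = 0.0102 in limma).

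Of 18 neural crest-like markers tested, 11 rose in WM164, 10 in SKMel28 and 9 in A375 at an adjusted p of 0.05 or less, as did 8.81%, 7.73% and 2.33% of all tested genes. In WM164 2 fell, SOX9 by 6.14 and SNAI2 by 0.51 on the log2 scale, and in SKMel28 1 fell, FOXD3 by 1.05. The list had medians of 0.63, 0.74 and 0.79 in WM164, SKMel28 and A375 and a median difference of -0.10, which was 0.25 under the same count filter and 0.30 on log2(TPM + 1). In the difference, 5 were called lower and 1, NGFR, higher. The lower ones included RXRG, S100B and ERBB3, whose A375 responses were 5.4, 3.5 and 2.59 and whose SKMel28 responses were 1.19, 0.58 and 0.29, each with an adjusted p of 0.05 or less. SOX2 had counts near the floor, with responses of 5.87, 1.21 and 3.83 (adjusted p = 0.0101, 0.291 and 0.00803) in WM164, SKMel28 and A375. Its difference was -0.29 (SE 0.52, adjusted p = 0.875).

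Over all tested genes 1.26% were called higher and 2.21% lower in the difference. Of 33 receptor tyrosine kinases tested, 3 were called higher and 5 lower, with AXL and EPHA2 higher and MET lower as members. Of 26 growth factors and ligands, 3 were higher and 1 lower, with FGF2 the member. Of 34 axon guidance and neuronal adhesion genes, 3 were higher and 7 lower, with NEGR1, ROBO2 and PLXNC1 as members. Of 26 TGF-beta and BMP genes, 4 were higher and none lower, with FST among the members and a median difference of 0.25. Of 27 proteases and inhibitors, 1 was higher and 4 lower, and of 20 inflammatory genes 2 were higher and 1 lower. MAPK feedback genes (18 tested) and mitotic genes (20 tested) had no call in either direction, with median differences of -0.01 and 0.03. Among markers of other cell types, the difference was called lower for 2 of 5 fibroblast and 1 of 3 immune markers tested (CD68) and for none of 3 keratinocyte and 4 endothelial markers, and no list had a higher call.

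The lists of MAF, CNC and AP-1 factors and of NRF2 targets held few members, and targets of MAFG as such were not listed. Of 21 MAF, CNC and AP-1 factors tested, 2 were called higher and 1 lower in the difference, and none was a member. NFE2L2 went from 132 ± 9.24 to 155 ± 1.07 CPM in WM164 and from 169.7 ± 5.63 to 207 ± 3.46 in SKMel28, and its difference was 0.11 (SE 0.15, adjusted p = 0.78). The lower call was MAF, a large MAF factor, through an A375 response of 4.15. Of 21 NRF2 targets, 2 were called lower and none higher, and SLC7A11 was the member. The median response of these targets was below 0 in each line, at -0.35, -0.56 and -0.17, beside 0.00 over all genes.

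**Figure D5:**
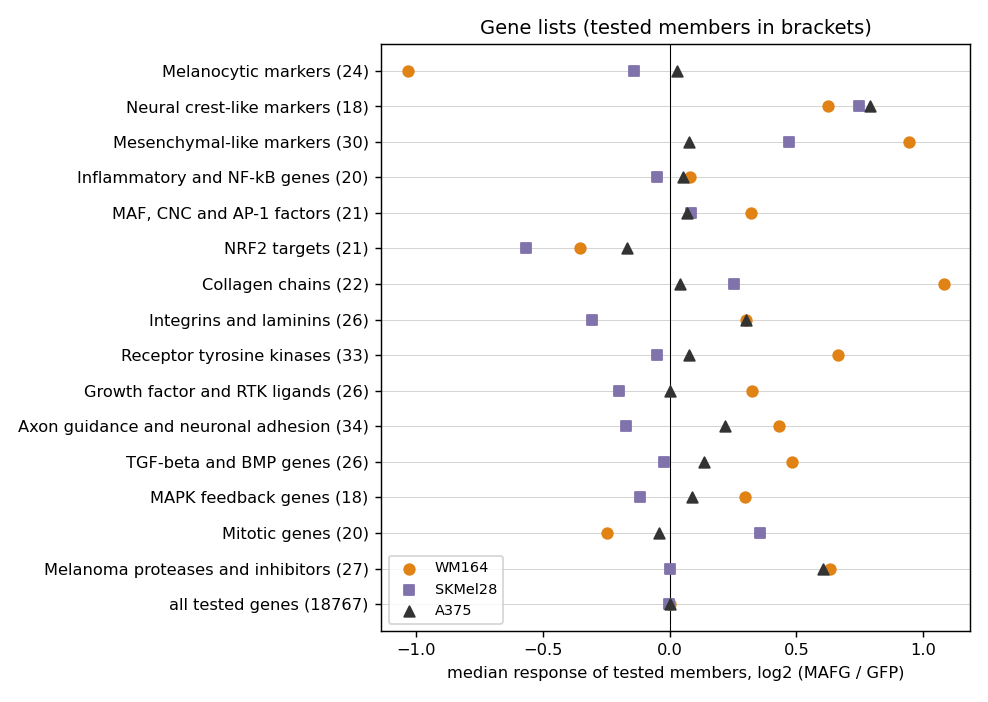
Median response of the tested members of each gene list (horizontal axis, log2 of MAFG over GFP) in WM164 (circles), SKMel28 (squares) and A375 (triangles), with the number tested in brackets. Mesenchymal-like markers and collagen chains are to the right in WM164 and SKMel28 and near 0 in A375, and neural crest-like markers lie at 0.63 to 0.79 in all 3 lines. The melanocytic markers have medians of -1.03 in WM164, -0.14 in SKMel28 and 0.03 in A375.

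The classes outside the common response showed how a mean could be carried by a single line. In WM164 alone, CDK14, a cyclin Y-dependent kinase, was at the floor with GFP and at 11.4, 13.7 and 15.7 CPM with MAFG, at least 125-fold higher, which is 55.4% of its A375 level, while SKMel28 had 13.4 ± 0.92 and 16.1 ± 0.637. PDLIM1 and SDC2 likewise rose in WM164 by 3.24 and 2.86 on the log2 scale, with SKMel28 responses of -0.45 and 0.00. SOX9, a neural crest factor, fell from 7.48 ± 1.18 CPM to 0.0988 ± 0.059 in WM164 and had a SKMel28 response of 0.96 (adjusted p = 0.174). ARHGAP24 and KCNAB2 also fell in WM164 by 1.84 and 1.33. In SKMel28 alone, IGFBP2, which binds insulin-like growth factors, rose from 1.5 ± 0.725 to 27.8 ± 1.31 CPM, while WM164 had 116 ± 12.1 and 92.7 ± 4.12. The kinase LYN rose by 1.94, and IL4R from 0 counts to 0.467, 0.646 and 0.676 CPM, at least 5.09-fold. GPC6, FAM129A and DSP fell in SKMel28 by 3.13, 1.53 and 3.63, with WM164 responses of -0.22, -0.24 and -0.51.

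Of the 143 lower genes that rose in A375 and fell in neither other line, A375 GFP was below both other lines for 133. Over all tested genes this held for 16.9%. The rise and the gap share the A375 GFP libraries, which also helped to choose these genes, so this count is a description. SOX10 (ENSG00000100146.17, chromosome 22, 37970686 to 37987422), the factor that maintains the melanocytic lineage and overlaps POLR2F, was at 6.93, 8.15 and 11.5 CPM in A375 GFP and 142, 102 and 97.9 in A375 MAFG libraries. In WM164 it was at 1369 ± 54.9 with GFP and 1328 ± 10.4 with MAFG, and in SKMel28 at 892 ± 9.41 and 909.6 ± 39.6. Each A375 MAFG library was far above each A375 GFP library, while the responses elsewhere were -0.04 (adjusted p = 0.907) and 0.03 (adjusted p = 0.949). The difference was -3.7 (SE 0.17, adjusted p = 5.63e-12). GAS7 went from 0.104, 0.136 and 0 to 7.94, 7.66 and 8.12 CPM in A375 (difference -6.27) and SOX5 from 6.78, 6.88 and 5.69 to 26.9, 26.8 and 29.3 (difference -1.89), and both also rose in WM164, by 0.56 (adjusted p = 8.21e-05) and 0.39 (adjusted p = 0.00131). Of the 143 genes, 74 (51.7%) were at 5 CPM or more in both other lines with GFP, as were 52.1% of all tested genes. Of 31 genes at the floor in A375 GFP and at 20 CPM or more in both other lines, 18 were still at the floor in A375 MAFG, and the highest level, of COL19A1, was 6.29% of that in the other lines. The rise of those 133 genes in A375 was toward the GFP level of the other lines.

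Promoters of the members were searched for 4 motifs, on both strands, in the 250 bases upstream of each start listed by RefSeq for GRCh38.p14. The motifs were TGANTCA, the core that AP-1 and MAF dimers share, TGCTGA, an arm of the MAF site, TCATGTG, an M-box, and CACGTG, an E-box. In a MAF site TGCTGA shares the bases TGA with the core, so the same stretch can count for both. TCATGTG and CACGTG are sites of MITF. For the 63 lower genes, 53 matched a promoter, and 13 of their 92 promoters (14.1%) held TGANTCA, beside 6.57% of all 35116 promoters listed. Of the tested genes only 62.7% matched, so no share over tested genes was read. For the 85 higher genes, 65 matched, which is 76.5% and under the 80% needed to read a share, and 11 of their promoters held the motif. TGCTGA was in 13% of promoters of lower genes beside 14% of all promoters, TCATGTG in 3.26% beside 2.52%, and CACGTG in 4.35% beside 6.35%. A match is a stretch of letters, and no binding was measured.

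The windows printed here are those of named members with TGANTCA upstream of a start and outside exons, shown 5′ to 3′ on the strand of the gene with the motif in capitals. In that of FST (chr5:53480443-53480502, plus strand, intergenic) the motif begins 160 bases upstream of a start, and in that of IL11 (chr19:55370526-55370585, minus strand, intergenic) 96 bases upstream, both genes being higher with MAFG. In that of RUFY3 (chr4:70734247-70734306, plus strand) it begins 137 bases upstream of an internal start, in an intron of the gene, which was lower with MAFG.
FST: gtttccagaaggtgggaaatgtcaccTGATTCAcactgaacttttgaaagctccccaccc
IL11: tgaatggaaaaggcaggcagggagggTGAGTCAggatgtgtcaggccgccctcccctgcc
RUFY3: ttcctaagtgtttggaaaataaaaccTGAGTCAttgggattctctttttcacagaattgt
The FST match is TGATTCA and the other matches are TGAGTCA, and they stand upstream of a gene that rose in both lines, of a gene near the floor and of a gene that fell.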

How the data were processed

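The authors deposited 1 table of gene counts and 1 of TPM values for 18 libraries. Per the labels and methods, reads were trimmed with cutadapt 1.8.1, aligned to GRCh38 with STAR 2.7.7a and counted with featureCounts, and the submitters' processing notes name RSEM 1.3.0. The deposited TPM values are scaled by the authors to library size and transcript length. The labels and the methods name different kits, so use of strand in the counting is not given in the sources used here.

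The counts were fitted in R 4.3.3 with edgeR 4.0.16 (TMM normalization, filterByExpr, quasi-likelihood F test, a mean per group), with Benjamini-Hochberg adjustment over 18767 genes. Unless another tool is named, each adjusted p comes from this fit. Calls needed a fold above 2 with an adjusted p of at most 0.05. CPM values use the TMM library sizes. DESeq2 1.42.0, limma 3.58.1 (on log2 TPM with a pseudocount of 1 or 0.1, and voom), other filters, a replicate block and leaving out each library were alternatives. The fitting was tested on simulated data. Same-numbered libraries deviated from their group means with correlations of -0.03 to 0.01. No pairing by number was seen, although a small shared effect could leave such values. Replicates differed by 5.90 to 96.7 in chi-square per gene, so none was a repeat. Depth of 20122172 to 39025042 counts sets counting error only.

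Genes named were, in each direction, the 12 common response genes with the largest smaller response of WM164 and SKMel28, with libraries apart and at least 5 CPM in the higher condition of both lines, all members of the common response in 19 gene lists, 10 genes such as MITF whatever their values, and the 3 genes of smallest adjusted p per direction of the genes carried by 1 line. Clone names and Y-linked genes were left out. Some genes that this rule names are not reported here. INHBA, EGFR, THBS1, CCN1, TWIST2, TNC, RXRG, S100B, ERBB3, MAF, EDNRB, GPR143, MC1R, SNAI2, FOXD3 and CACNA2D3 were added after their values were seen. Members and lists were chosen with earlier results of these data known. Coordinates are those of GENCODE 44, which held 58472 of 58825 gene identifiers, and promoter sequences are from RefSeq.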

Additional observations from a re-analysis of the deposited data

Results flagged for a closer look

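These are results in which the mean response of WM164 and SKMel28 differed from that of A375 by the edgeR quasi-likelihood test of the difference. Across genes the response difference was higher for 236 and lower for 414, whichever line bore it. In each gene named next, A375 moved more than the others or against them. SOX10 (-3.70), GAS7 (-6.27) and SOX5 (-1.89) rose in A375 with MAFG. HOXD13 (1.19) and PRR16 (1.68) fell in A375. IDH1-AS1, antisense to IDH1, had a difference of 4.59 and was at the floor of 3 counts in the A375 MAFG libraries. MMP14 (-1.27) fell in WM164 and SKMel28 and rose in A375. Groups of 3 libraries were not examined for outlying libraries.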

How the results depend on the processing

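Requiring at least 10 counts in every library gave 84 genes with a higher and 167 with a lower response difference, 39 common higher genes, 45.5% of lowered genes with A375 GFP below both lines, and median differences of 0.25 for neural crest-like and 0.19 for mesenchymal-like markers. That filter removes genes near 0 in 1 line. On log2(TPM + 1) with limma the differences were 84 and 72, the common response 24 higher and 34 lower, the shares of raised and lowered genes with A375 GFP on their side 30.8% and 91.7%, and the medians 0.30 and 0.37. On log2(TPM + 0.1) they were 156 and 176, 42 and 38, and 73.0% for lowered genes. Of the named differences, 30 fell short of a call on log2(TPM + 1) and 16 on log2(TPM + 0.1). FGF2, TLR4, COL4A1, NEGR1 and PLXNC1 did so on both, with adjusted p of 0.0569 to 0.808 in limma. So did ARHGAP29, TESK2, ADAMTS6, CD68, SLC7A11, ARHGAP24, KCNAB2, IL4R and PRR16, CD68 through the fold limit alone. IL11 is among the 16 but outside the 30, because its sign changed on log2(TPM + 1). MLANA was called on both. The cause was not tested. With no fold limit there were 606 and 874 differences, 193 and 191 common genes, and 44.1% for raised genes. Asking for a fold above 2 in each line and a call of each line against A375 left 46 and 29. The shares for genes called in 1 line alone, chosen after seeing the data, were 43.4% (higher in WM164) and 45.4% (lower in SKMel28). Of the 148 common genes, DESeq2 shared 144 (of 188), voom 116 (of 168), no count filter 140 (of 188) and separate fits of each line 121 (of 164).

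The differences that changed sign, none of them called where it did, were NFE2L2 with voom (-0.00233), IL11 (-0.079) and MAFG (-0.041) on log2(TPM + 1), and, leaving out 1 library at a time, MAFG (-0.14 to 0.17), SOX2 (-1.24 to 0.29) and NFE2L2 (-0.078 to 0.27). Only IL11 of these was called as reported. Leaving out 1 library gave 202 to 298 higher and 369 to 476 lower differences, 74 to 98 and 49 to 75 common genes, and shares of 51.5% to 61.9% and 51.2% to 65.5%.

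With the replicate block the differences were 188 and 358, the common response 80 and 64 (127 shared) and the shares 53.2% and 54.9%. It changed 1 named call, PMEL (-1.96, adjusted p = 0.00392 in edgeR). The labels do not say whether replicate numbers pair these libraries, and the correlations showed no pairing.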
